A study of Mus musculus with 11 samples.

Results

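The constitutive SOX17OE line and the inducible SOX17OE line are 2 of the 11 mouse colon cancer organoid samples of this series, and they were chosen by their labels alone. They were compared as a pair with a high and a low level of Sox17, which the labels do not give and the counts below show. Both lines were made from naive AKP organoids by lentiviral transduction with a SOX17 overexpression construct, which was constitutive in one line and dox-inducible in the other. The labels give the same genotype, AKP, for every sample. Each line was sequenced as 1 library with no replicate. The references were 3 libraries of naive AKP organoids, which had no recipient mouse, 3 libraries of organoids regrown from primary tumours in C57Bl6 mice, and 3 libraries regrown from primary tumours in RAG2KO mice, which lack mature B and T cells. The sources used here do not say whether the inducible line received doxycycline, whether either line is a single clone, or whether a control vector was used. The question the pair can address is which genes differ between a line with much and a line with little Sox17 RNA, and the type of construct and the Sox17 level cannot be told apart in it.

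SOX17 is a transcription factor of the SOXF group that binds DNA through an HMG box. It is best known for forming the definitive endoderm of the embryo and for its work in endothelial cells and bile ducts, and the adult colon epithelium normally has little of it. The interferon genes described below are switched on when type I interferon or interferon gamma binds its receptor and activates STAT proteins, which act on DNA as dimers or together with IRF9. Beta-2-microglobulin and the class I heavy chains that display peptides to T cells are among the genes that interferon raises.

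The libraries held 17521173 expected counts in the constitutive line and 17364887 in the inducible line, within the range of 14109182 to 22154456 over all 11 libraries. Of 23224 gene names, 13720 passed a filter on low counts and were tested. Levels are given as CPM, counts scaled by TMM to a common library size. Epcam, which defines epithelial cells, was at 1006 CPM in the constitutive line, 1085 CPM in the inducible line and 974 to 1035 CPM in the naive libraries. The ribosomal precursor Rn45s took 6.39% of counts in the constitutive line (95% Wilson interval 6.38 to 6.41%), 3.71% in the inducible line (3.70 to 3.72%) and 2.42 to 4.99% in the naive libraries, and these intervals cover counting error only. Leaving Rn45s out of the table gave the same 39 calls between the lines.

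Sox17 RNA was high in the constitutive line, low in the inducible line and nearly absent from naive organoids. The naive libraries held 0.214, 0.0438 and 0.0477 CPM of Sox17 (3, 1 and 1 counts). The inducible line held 4.78 CPM (82 counts) and the constitutive line 72.7 CPM (1262 counts). The constitutive level was 15.2 times that of the inducible line, with a 95% counting interval of 12.2 to 19.3. Among tumour-derived organoids Sox17 stood at 18.4, 12.4 and 74.3 CPM in the C57Bl6 libraries and at 22.2, 15.4 and 24.4 CPM in the RAG2KO libraries. The inducible line thus lay below all 6 tumour-derived libraries, and the constitutive line lay above 5 of them. Reads from the construct and from the endogenous gene were not separated in the counts.

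In the fit of all 11 libraries the line difference of Sox17 was 3.93 on the log2 scale (SE 1.12), with an adjusted p of 0.236. The constitutive line was 9.59 above naive (adjusted p = 0.00143), and the inducible line was 5.66 above naive (adjusted p = 0.077). The test takes the spread of a single line from the triplicate groups, and the C57Bl6 libraries alone spread over 2.54 on the log2(CPM + 0.5) scale for Sox17, against a line difference of 3.79. With the tumour-derived libraries left out of the fit, the difference of Sox17 had an adjusted p of 0.00588. The p-values measure only the spread between these libraries, since nothing given here says that replicates came from separate cultures or animals.

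**Figure D1:**
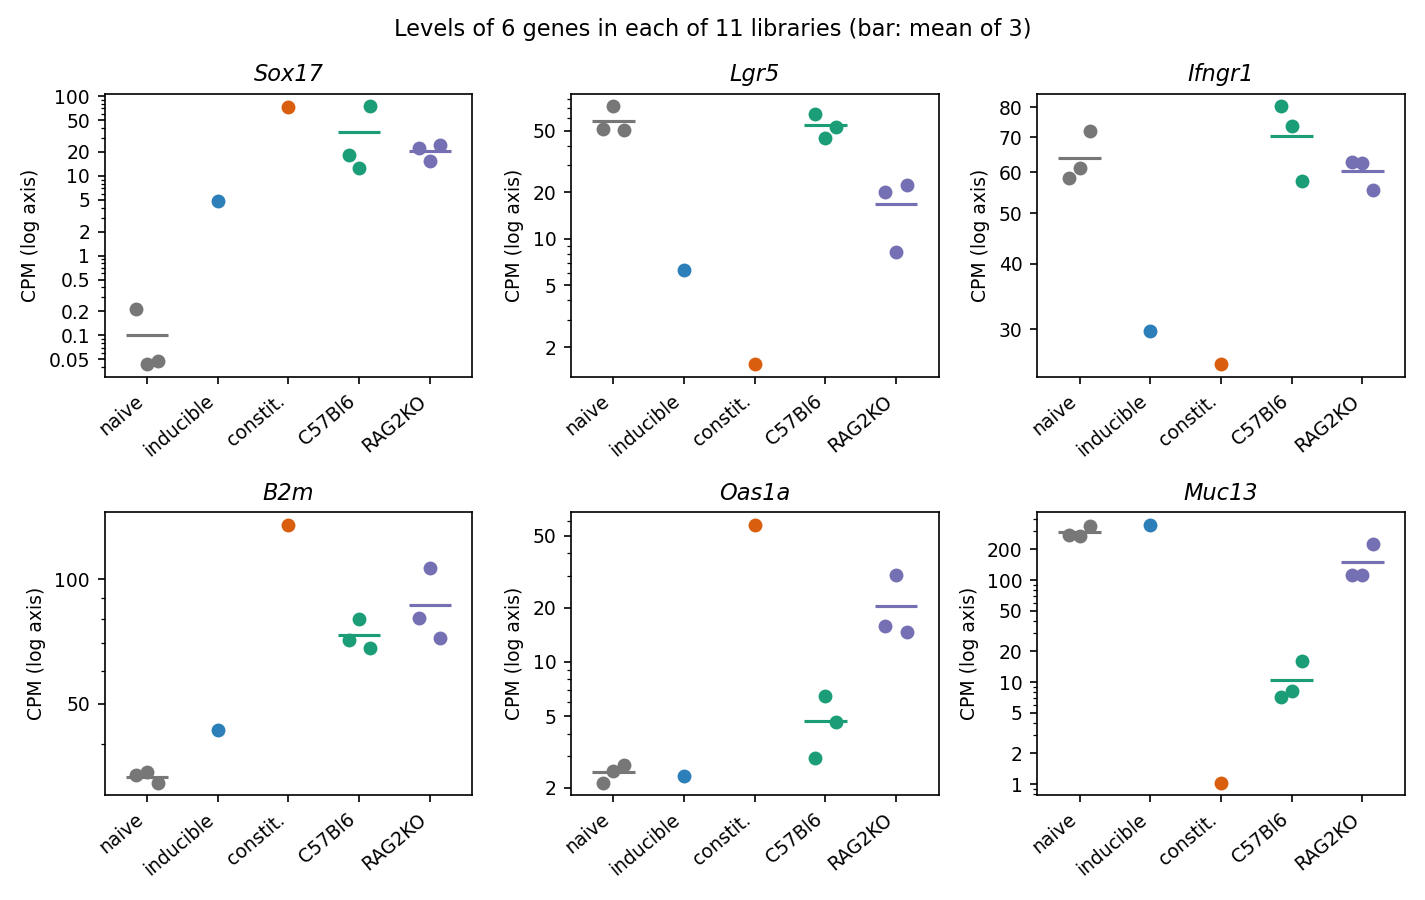
Level of Sox17, Lgr5, Ifngr1, B2m, Oas1a and Muc13 in CPM on a log axis, with 1 point for each library and a bar at the mean of each triplicate group. Sox17 is lowest in naive and highest in the constitutive line of these 3 groups, Lgr5 is lowest in the constitutive line, B2m and Oas1a stand out in the constitutive line, and Muc13 is at 1.04 CPM there against 348 CPM in the inducible line.

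Between the lines 39 of 13720 genes were called at an adjusted p under 0.05 (0.284%), and 1554 had an unadjusted p under 0.05. Of these 39, 11 were higher in the constitutive line (0.0802% of tested genes) and 28 were lower (0.204%). The smallest called difference was 1.44 on the log2 scale. Against naive, 1684 genes were called for the constitutive line (12.3%; 992 higher, 7.23%, and 692 lower, 5.04%) and 90 for the inducible line (0.656%; 72 higher, 0.525%, and 18 lower, 0.131%). Both of these comparisons use the same 3 naive libraries. Single libraries moved these counts. Between the lines 17 genes were called without naive replicate 1, 19 without naive replicate 2, 70 without C57Bl6 replicate 1 and 80 without RAG2KO replicate 2. Against naive, the constitutive line had 721 calls and 953 calls with naive replicates 2 and 3 left out in turn. The inducible line had 13, 12 and 26 calls when naive replicates 1, 2 and 3 were left out in turn. It had 55 without RAG2KO replicate 1 and 147 without C57Bl6 replicate 1. For single genes, calls of the inducible line against naive are given below from the fit of all 11 libraries only.

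A second description used no model. The difference of the lines on the log2(CPM + 0.5) scale was set against the widest spread, highest minus lowest, of any of the 3 triplicate groups for the same gene. It was larger than that spread for 2859 genes (20.8%), 1419 higher (10.3%) and 1440 lower (10.5%) in the constitutive line, and for all 39 called genes. When only the naive libraries and both lines were fitted, 411 of 12915 genes were called (3.18%), 203 higher (1.57%) and 208 lower (1.61%), and these held all 39. That fit has 2 residual degrees of freedom, so its calls lean on how much 3 naive libraries varied.

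**Figure D2:**
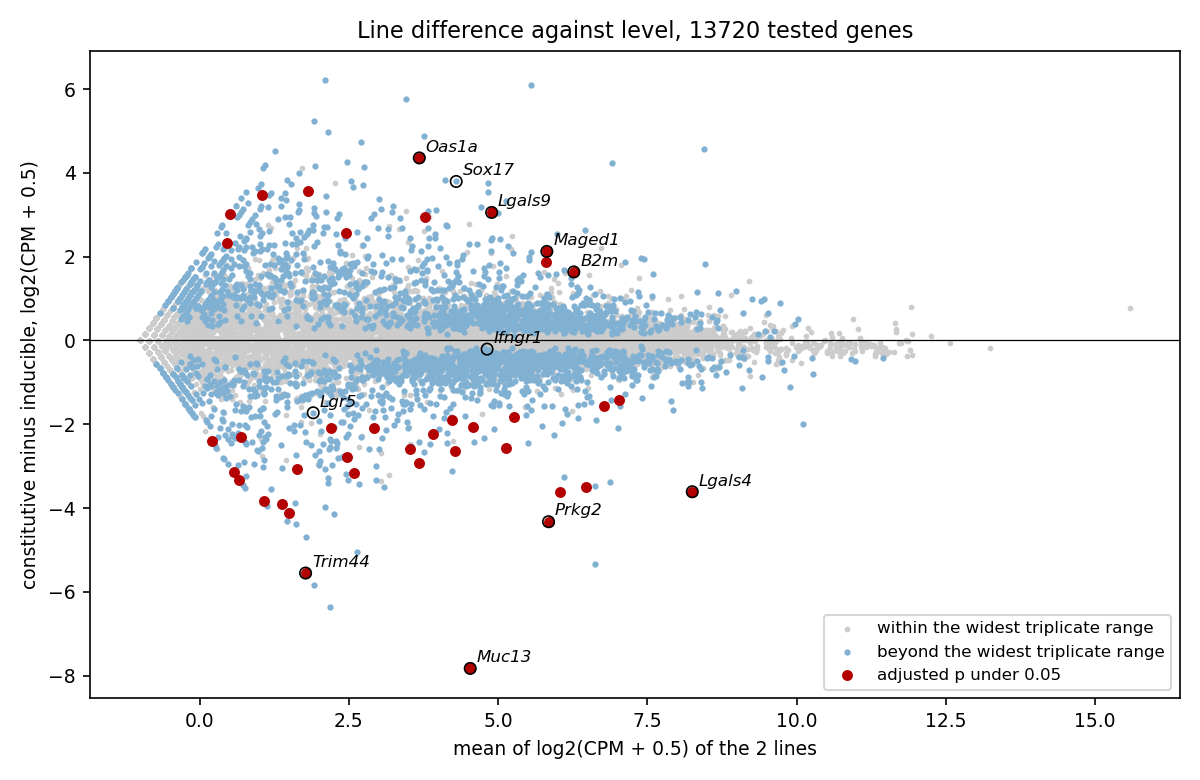
Difference of the lines for each tested gene, constitutive minus inducible on the log2(CPM + 0.5) scale, against the mean of both lines on the same scale. The 39 called genes are red, the other genes beyond the widest triplicate range are blue, and Muc13, Trim44 and Prkg2 lie lowest among the ringed genes.

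The genes called higher in the constitutive line included several of immune function. Oas1a, an enzyme that senses double-stranded RNA and activates RNase L, was at 2.14, 2.50 and 2.67 CPM in naive organoids, 2.33 CPM in the inducible line and 57.5 CPM in the constitutive line. The inducible line was inside the naive range, while the constitutive line was above every other library, the highest being 30.4 CPM in a RAG2KO library. The line difference was 4.62 (SE 0.66, adjusted p = 0.0248), and leaving out naive replicate 1 or naive replicate 2 gave an adjusted p of 0.0589 or 0.0547. Reads of Oas1a may be divided with the similar Oas1g, which was at 0.291 CPM in the inducible and 10.1 CPM in the constitutive line.

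B2m, the light chain of all class I molecules, was at 33.6, 34.2 and 32.3 CPM in naive organoids, 43.2 CPM in the inducible line and 135 CPM in the constitutive line. The C57Bl6 libraries held 71.3, 80.2 and 68.1 CPM of B2m and the RAG2KO libraries 80.4, 107 and 72.2 CPM, so the constitutive line exceeded all of them and the inducible line lay between naive and tumour-derived. B2m rose by 1.65 between the lines (SE 0.27, adjusted p = 0.0367), and it was 2.02 above naive in the constitutive line (adjusted p = 0.000447). The call of B2m was lost, at adjusted p values of 0.0519 to 0.0942, when any 1 of the 3 naive libraries, C57Bl6 replicate 3 or RAG2KO replicate 1 was left out.

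Lgals9 encodes galectin-9, a sugar-binding protein that engages receptors on T cells. Its level was 3.86, 3.64 and 3.29 CPM in naive organoids, 9.79 CPM in the inducible line and 85.1 CPM in the constitutive line. The order of the 3 groups was the same as for Sox17, and the constitutive line was above the highest tumour-derived library, at 53.3 CPM. The difference of Lgals9 was 3.12 (SE 0.41, adjusted p = 0.0159), and its call was kept in all 20 alternative settings. Ifi47, an interferon-inducible GTPase, rested on few counts, 2 in the inducible and 45 in the constitutive line, a ratio of 22.2 with a 95% counting interval of 5.81 to 189, and its call was lost without naive replicate 1 or 2 or C57Bl6 replicate 3 (adjusted p = 0.0586 to 0.0849) and under limma voom (adjusted p = 0.215). Ifi47 stood higher still in tumour-derived organoids, at 6.60 to 10.9 CPM against 2.59 CPM in the constitutive line.

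Promoters of Oas1a and B2m are shown because both hold the repeat that STAT and IRF factors are known to read. The sequences are the 250 bases before the start of the gene, written in the direction of transcription, from RefSeq on GRCm38.p6; the deposited counts were made on mm9, and none of their coordinates are used. Capitals mark matches to GAAA, any 2 bases and GAAA again, on either strand (TTTC, any 2 bases and TTTC on the other), and overlapping matches run together (2 in Oas1a, 1 in B2m).
Oas1a (chr5:120907526-120907775, minus strand): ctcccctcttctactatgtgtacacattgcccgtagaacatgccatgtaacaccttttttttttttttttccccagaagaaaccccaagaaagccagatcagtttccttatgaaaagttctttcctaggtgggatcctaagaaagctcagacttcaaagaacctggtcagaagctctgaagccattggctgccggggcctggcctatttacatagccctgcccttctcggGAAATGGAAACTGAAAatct
B2m (chr2:122147437-122147686, plus strand): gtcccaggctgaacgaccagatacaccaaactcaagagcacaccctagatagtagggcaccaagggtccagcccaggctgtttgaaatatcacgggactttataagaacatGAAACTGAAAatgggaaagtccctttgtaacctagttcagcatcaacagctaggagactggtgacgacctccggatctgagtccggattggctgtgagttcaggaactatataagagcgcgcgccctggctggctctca
This repeat was present in 2.977% of 32851 windows of this length in the RefSeq table and in 3.064% of the 9660 tested genes that had a window. Of 19 type I interferon genes with a window, 8 held it (42.11%): Bst2, Ifit1, Ifit3, Isg15, Oas1a, Oas1g, Oas3 and Rsad2. The motif was found in 3 of 10 genes called higher and in 1 of 22 genes called lower between the lines. A match describes the sequence and is no evidence of binding in these organoids.

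All 28 genes listed as induced by type I interferon passed the filter on low counts, and each had a positive fitted difference between the lines, with a median of 2.79 against 0 over all tested genes. Only Oas1a was called between the lines, where 0.0802% of tested genes were called higher. The number of members called was 0 without naive replicate 1 or 2, 5 without RAG2KO replicate 1 and 6 without RAG2KO replicate 2. Beyond the widest triplicate range lay 21 of the 28 (75%), against 10.3% of tested genes in that direction, and that number stayed between 21 and 24 when 1 triplicate library was left out. Summed over the list, the level was 240 CPM in the inducible line and 819 CPM in the constitutive line, with 193 to 301 CPM in naive and 227 to 665 CPM in tumour-derived libraries. Against naive, 18 of the 28 were called higher in the constitutive line, where 7.23% of tested genes were, and 1, Mx1, in the inducible line, where 0.525% were. In the fit without tumour-derived libraries 15 were called higher between the lines, where 1.57% of tested genes were.

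Individual members show how large the gap was. Rtp4, a chaperone of receptors that interferon induces, was at 0.643, 1.05 and 0.620 CPM in naive organoids, 1.98 CPM in the inducible line and 73.1 CPM in the constitutive line. Irf7, the factor that amplifies the interferon response, was at 2.64, 3.16 and 4.72 CPM in naive organoids, 2.74 CPM in the inducible line and 26.6 CPM in the constitutive line. The inducible line was within the naive range for Irf7 and above it for Rtp4, and the constitutive line was above all naive libraries for both. Their adjusted p values between the lines were 0.121 for Rtp4 and 0.185 for Irf7 in the fit of all libraries, where RAG2KO organoids spread widely (4.45 to 31.0 CPM for Rtp4), and 0.00264 and 0.0145 in the fit without tumour-derived libraries. Oas2 had no count in the inducible line and 142 in the constitutive line, at least 46.8-fold higher with a floor of 3 counts in the library at 0 (adjusted p = 0.0642). Mx1, a GTPase that blocks viruses, was the only member called above naive in the inducible line. It was at 6.59 CPM there against 0.214 to 0.763 CPM in naive organoids, with 26.9 CPM in the constitutive line.

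**Figure D3:**
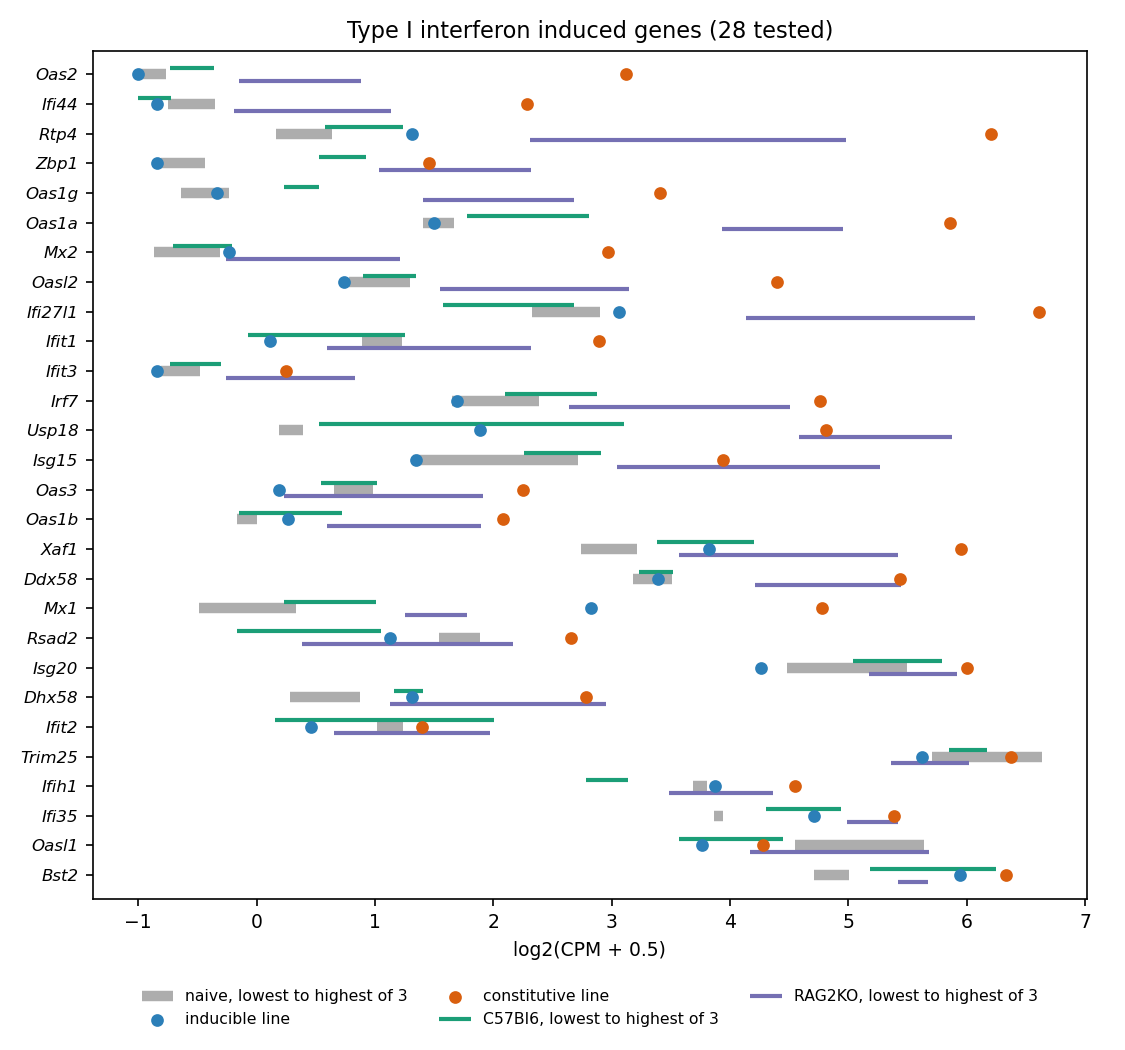
Level of the 28 tested genes of the type I interferon list on the log2(CPM + 0.5) scale, with 1 point for each line and bars from the lowest to the highest library of each triplicate group. The point of the constitutive line lies right of that of the inducible line for all 28 genes.

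The receptors and signal proteins of the interferon pathway were tested as a list of their own. None of 17 tested members of this list was called between the lines, and 5 were higher and 1 lower beyond the widest triplicate range (10.3% and 10.5% of tested genes were). The higher ones included Irf9, Ifnar2, Stat2 and Ifngr2. Irf9 was at 7.15, 9.77 and 10.01 CPM in naive organoids, 13.5 CPM in the inducible line and 75.1 CPM in the constitutive line (2.47, SE 0.61, adjusted p = 0.162). Stat2, which partners IRF9, was at 17.01, 14.8 and 15.9 CPM in naive organoids, 14.98 CPM in the inducible line and 47.7 CPM in the constitutive line (1.67, SE 0.45, adjusted p = 0.204). The constitutive line was above every naive library for both genes. Irf9 and Stat2 were each called higher than naive in the constitutive line, and both were called between the lines in the fit without tumour-derived libraries.

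Ifngr1, the ligand-binding chain of the interferon gamma receptor, was low in both lines. It was at 58.6, 61.2 and 72.0 CPM in naive organoids, 29.7 CPM in the inducible line and 25.7 CPM in the constitutive line, below every naive and tumour-derived library. The lines differed by -0.21 (SE 0.26, adjusted p = 0.825), which was inside the widest triplicate range of 0.47. Against naive, Ifngr1 was 1.31 lower on the log2 scale in the constitutive line (adjusted p = 0.00706) and 1.11 lower in the inducible line (adjusted p = 0.0593). Ifngr2, the signalling chain, was at 76.7 CPM in the inducible and 130 CPM in the constitutive line, against 64.8 to 75.8 CPM in naive organoids, and the line difference was not called (adjusted p = 0.411).

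Of the 20 tested genes listed as induced by interferon gamma, none was called between the lines, and 9 were higher and 1 lower beyond the widest triplicate range (10.3% and 10.5% of tested genes were), with a median difference of 1.43. The guanylate-binding protein gene Gbp3 was at 0.816 CPM in the inducible and 13.8 CPM in the constitutive line, and Parp14, an ADP-ribosyltransferase, at 8.22 and 34.3 CPM. Gbp genes resemble one another, so reads may be divided among them. Irf1, the first factor induced by interferon gamma, was at 39.0 and 44.7 CPM in the inducible and constitutive line (adjusted p = 0.844). Cxcl10, a chemokine that attracts T cells, was low in both, at 1.40 and 2.02 CPM, against 10.2 to 18.6 CPM in naive organoids.

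In the class I antigen presentation list B2m was the only 1 of 24 tested genes called (0.0802% of all tested genes were called higher). The median difference was 0.22. Beyond the widest triplicate range 4 were higher and 1 lower (10.3% and 10.5% of tested genes were). Of the 24, 15 had a positive difference, and the lowest difference was -1.54. The heavy chains H2-K1 (328 CPM in the inducible and 352 CPM in the constitutive line) and H2-D1 (255 and 298 CPM) had line differences of 0.10 and 0.22, each inside the widest triplicate range. Tapbp and Psme1, which serve peptide loading and the proteasome, were beyond that range at 11.9 and 23.1 CPM and at 68.5 and 96.8 CPM, and neither was called between the lines. Tap1, the peptide transporter, was at 2.62 and 5.59 CPM, and Cd274, which encodes PD-L1, at 1.22 and 1.21 CPM. Among 18 inhibitory ligands 3 were higher and 3 lower beyond the widest triplicate range (10.3% and 10.5% of tested genes were). In this list 8 differences were positive, and the median was -0.02. The summed level of all 22 matched members, tested or not, was 1456 CPM in the inducible and 979 CPM in the constitutive line. Lgals9 was the only one called, where 0.0802% of tested genes were called higher. The checkpoint ligand gene Vtcn1 rose from a naive range of 1.40 to 2.19 CPM to 8.04 CPM in the inducible line (adjusted p = 0.0451 against naive) and to 29.0 CPM in the constitutive line (adjusted p = 0.000447 against naive).

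The other genes called higher had no single function. Nfatc4, a calcium-dependent transcription factor, had 2 counts in the inducible and 110 in the constitutive line, a ratio of 54.4 with a counting interval of 14.7 to 455 (adjusted p = 0.0367). Ptk7, a pseudokinase of planar polarity and Wnt signalling, was at 1.93, 2.32 and 2.72 CPM in naive organoids, 0.525 CPM in the inducible line and 11.6 CPM in the constitutive line (4.45, SE 0.63, adjusted p = 0.0243). The lines lay on opposite sides of the naive range for Ptk7, and tumour-derived organoids were higher than either, at 41.4 to 87.7 CPM. Fabp4, a carrier of fatty acids, was at 3.29, 4.12 and 2.72 CPM in naive organoids, 4.43 CPM in the inducible line and 37.4 CPM in the constitutive line (3.08, SE 0.46, adjusted p = 0.0304). Pdlim4, an actin-associated adaptor, was 1.89 higher in the constitutive than in the inducible line (SE 0.31, adjusted p = 0.0367) and was called above naive in both, at 28.8 and 107 CPM against 3.43 to 5.61 CPM. The calls of Nfatc4, Ptk7 and Fabp4 were lost without naive replicate 1 or 2 (adjusted p = 0.0517 to 0.0789), and that of Pdlim4 without naive replicate 1, C57Bl6 replicate 3 or RAG2KO replicate 1 or 3 (0.0519 to 0.0630). Under limma voom the calls of Nfatc4 (adjusted p = 0.185) and Ptk7 (0.282) were lost as well.

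Against naive, 3 of the higher genes were called in the inducible line only. In each of them the inducible line was below and the constitutive line above every naive library. Maged1, an adaptor of p75 and apoptosis signalling on chromosome X, was at 86.9, 83.9 and 68.7 CPM in naive organoids, 26.5 CPM in the inducible line and 117 CPM in the constitutive line (2.15, SE 0.26, adjusted p = 0.0103). Against naive, Maged1 was called lower in the inducible line (adjusted p = 0.0198), and it was not called in the constitutive line (adjusted p = 0.0951). Cstf2t, a polyadenylation factor, was at 1.75 CPM in the inducible line against 10.8 to 12.3 CPM in naive organoids and 12.8 CPM in the constitutive line. Dnajc27 had no count in the inducible line and 62 in the constitutive line (3.57 CPM), at least 20.4-fold higher. Naive organoids held 1.57 to 2.45 CPM of Dnajc27. The call of Cstf2t was lost without any 1 of the naive libraries, C57Bl6 replicate 3 or RAG2KO replicate 1 (adjusted p = 0.0519 to 0.0906). Under limma voom Cstf2t (adjusted p = 0.128) and Dnajc27 (0.0822) were not called.

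The genes called lower included products of differentiated colon epithelium. Muc13, a membrane mucin of the apical surface, was at 278, 269 and 340 CPM in naive organoids, 348 CPM in the inducible line and 1.04 CPM in the constitutive line. The inducible line was just above the naive range, whereas the constitutive line had 18 counts and was below all other libraries, the nearest being the C57Bl6 libraries at 7.18, 8.19 and 16.3 CPM. Muc13 fell by 8.38 between the lines (SE 0.87, adjusted p = 0.00545). Lgals4, the abundant galectin of colonocytes, was at 1421, 1298 and 1266 CPM in naive organoids, 1064 CPM in the inducible line and 86.7 CPM in the constitutive line. Lgals4 fell by 3.62 (SE 0.40, adjusted p = 0.00545), and the constitutive line was far below the lowest tumour-derived library at 511 CPM. Cdhr5, a protocadherin that links microvilli, had 164 counts in the inducible and 3 in the constitutive line, a ratio of 0.0181 with a counting interval of 0.00369 to 0.0538 (adjusted p = 0.0238, but 0.0589 without naive replicate 1 and 0.209 under limma voom).

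Prkg2, a cyclic GMP-dependent kinase of intestinal secretion, showed opposite departures from naive. It was at 74.1, 66.3 and 85.9 CPM in naive organoids, 256 CPM in the inducible line and 12.3 CPM in the constitutive line, and it fell by 4.38 between the lines (SE 0.54, adjusted p = 0.0127). The same order held for Myo5c, a myosin of secretory epithelia, at 4.43, 4.91 and 4.72 CPM in naive organoids, 17.4 CPM in the inducible line and 1.498 CPM in the constitutive line. Myo5c was called against naive in both directions, higher in the inducible line (adjusted p = 0.00335) and lower in the constitutive line (adjusted p = 0.00453). The keratin gene Krt23 was at 133, 130 and 148 CPM in naive organoids, 297 CPM in the inducible line and 25.9 CPM in the constitutive line (adjusted p = 0.0367). The call of Krt23 was lost without any 1 of the naive libraries, without C57Bl6 replicate 3 and without RAG2KO replicate 1, with a largest adjusted p of 0.0964.

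Of 16 tested absorptive colonocyte genes, 2 were called lower, Muc13 and Cdhr5, and none higher, with a median of -3.02. Over all tested genes 0.204% were called lower and 0.0802% higher. Without naive replicate 1 the number of list members called lower was 1. Beyond the widest triplicate range 8 of the 16 were lower (50%, against 10.5% of tested genes) and 1 was higher (10.3% of tested genes were). The carbonic anhydrase genes Car1 and Car2 had the same form as Prkg2, with 375 and 2183 CPM in the inducible line, 35.9 and 551 CPM in the constitutive line, and 62.9 to 114 and 1335 to 1395 CPM in naive organoids. The exception was Krt20, a keratin of mature surface cells, at 2.43, 2.28 and 5.48 CPM in naive organoids, 10.7 CPM in the inducible line and 91.1 CPM in the constitutive line (adjusted p = 0.215, and 0.0329 in the fit without tumour-derived libraries).

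Among 21 tested factors of intestinal identity none was called between the lines, 5 were lower and 4 higher beyond the widest triplicate range (10.5% and 10.3% of tested genes were), and the median was -0.01. The list was split in direction, with 10 of 21 differences positive and a span from -6.23 to 1.03. The lower ones beyond that range included Cdx1, Cdx2 and Hnf4a, which set up and keep the intestinal programme, and Isx. Hnf4a was at 207, 234 and 248 CPM in naive organoids, 133 CPM in the inducible line and 27.7 CPM in the constitutive line, and Cdx2 at 99.3, 110 and 146 CPM, 103 CPM and 34.3 CPM. The constitutive line was below every naive library for both, and the inducible line was below them for Hnf4a only. Cdx1, Cdx2, Hnf4a and Isx were among 8 members called lower than naive in the constitutive line, where 5.04% of tested genes were. Another 2 members were called higher than naive there, where 7.23% of tested genes were. No member was called in the inducible line against naive. Cdx1, Cdx2, Hnf4a and Isx were all called between the lines in the fit without tumour-derived libraries. Lgr5, the receptor that marks stem cells, was at 50.9, 71.7 and 50.2 CPM in naive organoids, 6.30 CPM in the inducible line and 1.56 CPM in the constitutive line. Lgr5 was called lower than naive in both lines (adjusted p = 0.0428 and 0.00234), while the lines differed by -2.01 (SE 0.69, adjusted p = 0.313).

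A group of called genes of amino acid and one-carbon metabolism was also lower; Psph, Mthfd2, Cth, Atf5 and Pcbd1 were grouped here after their values were seen, and only Cth met the naming rule. Cth, the enzyme that makes cysteine, was at 129, 127 and 110 CPM in naive organoids, 229 CPM in the inducible line and 18.3 CPM in the constitutive line (adjusted p = 0.0367). The constitutive level of Cth was inside the range of tumour-derived libraries, 14.2 to 37.5 CPM. Psph, the last enzyme of serine synthesis, was at 188 and 63.0 CPM in the inducible and constitutive line, Mthfd2, a mitochondrial folate enzyme, at 213 and 78.8 CPM, and the transcription factor gene Atf5 at 71.9 and 19.8 CPM. Psph, Mthfd2 and Atf5 differed by -1.58, -1.44 and -1.86. Naive organoids held 138 to 168 CPM of Psph, 214 to 252 CPM of Mthfd2 and 56.9 to 62.3 CPM of Atf5. Asns, asparagine synthetase, was at 432 and 136 CPM and just missed the threshold (adjusted p = 0.0601). Called genes of lipid breakdown were Decr1 (34.6 and 4.15 CPM), Acox2 (32.1 and 6.40 CPM) and the lysosomal sphingomyelinase gene Smpd1 (8.51 and 0.576 CPM). Naive organoids held 14.4 to 17.1 CPM of Decr1, 25.4 to 28.4 CPM of Acox2 and 7.01 to 10.2 CPM of Smpd1. Calls of Cth and Mthfd2 were lost without any 1 of the naive libraries, C57Bl6 replicate 3 or RAG2KO replicate 1, of Psph without naive replicate 1 or 2 or C57Bl6 replicate 3, of Acox2 without any 1 of the naive libraries, and of Atf5 and Smpd1 without naive replicate 1 or 2, with a largest adjusted p of 0.0964 among these. Under limma voom the call of Smpd1 was lost too (adjusted p = 0.237). Pcbd1 and Decr1 kept their calls in all 20 alternative settings.

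Some genes of the inducible line had few or no counts in the constitutive line. Trim44, a tripartite motif protein with a role in deubiquitination, was at 2.64, 2.10 and 1.81 CPM in naive organoids and 22.9 CPM in the inducible line, and had no count in the constitutive line. This is at least a 132-fold lower level with a floor of 3 counts (adjusted p = 0.000205). Trim44 was at 36.1 to 48.7 CPM in the C57Bl6 libraries and at 2.06 to 2.43 CPM in the RAG2KO libraries. Rab19, Prkacb and Tubg2 also had no count in the constitutive line, with 67, 78 and 37 counts in the inducible line, which gives levels at least 22.6-fold, 26.3-fold and 12.5-fold lower. The inducible line, at 3.91, 4.55 and 2.16 CPM, was above naive organoids for each. Naive levels were 1.01 to 1.64 CPM of Rab19, 2.06 to 2.62 CPM of Prkacb and 0.570 to 1.38 CPM of Tubg2. Mical1, an actin-oxidising enzyme, had 128 and 1 counts (ratio 0.00772, counting interval 0.000194 to 0.0438), and Unc93b1, the chaperone of nucleic acid-sensing Toll-like receptors, had 193 and 3 (ratio 0.0154, counting interval 0.00314 to 0.0456). Mical1 and Unc93b1 were at 7.46 and 11.25 CPM in the inducible line. Their naive ranges were 8.91 to 10.3 CPM and 4.69 to 8.34 CPM. Noxa1, an activator of NADPH oxidase, went from 14.1 to 1.61 CPM, with 19.5 to 21.1 CPM in naive organoids and a difference of -3.12 (SE 0.26, adjusted p = 0.00127). The call of Unc93b1 was lost without naive replicate 1 (adjusted p = 0.0760), and that of Tubg2 without naive replicate 1 or 2, C57Bl6 replicate 2 or 3, or RAG2KO replicate 1 or 3 (0.0541 to 0.0964). Under limma voom the calls of Rab19 (adjusted p = 0.0822), Tubg2 (0.142), Mical1 (0.193), Unc93b1 (0.242) and Prkacb (0.270) were lost.

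The 39 called genes were picked for a large line difference, which by itself favours lines on opposite sides of naive. Shares of tested genes in this paragraph are therefore background and no test of the patterns. Placed against the naive range, the 28 lower genes fell into 3 patterns. In 17, among them Muc13, Prkg2, Myo5c, Krt23 and Cth, the inducible line was above all naive libraries and the constitutive line below them. Of tested genes 5.02% had this arrangement. Only Trim44 and Myo5c of the 17 were called above naive in the inducible line. In 7 both lines were below naive (23% of tested genes), and in 4 the inducible line was within the naive range (8.21%). Of the 11 higher genes, both lines were above naive in B2m, Fabp4, Lgals9 and Pdlim4 (25.3% of tested genes). The inducible line was below and the constitutive line above naive in 6 (4.31%), and Oas1a had the inducible line within the range (9.19%). No called gene had the constitutive line within the naive range, where 11.4% of tested genes had both lines, and where 6.76% and 6.79% had it with the inducible line above and below. Against naive 32 of the 39 were called for the constitutive line only, 3 for the inducible line only and 4 for both. Over all tested genes, 498 (3.63%) had both lines above every naive library and the constitutive line above the inducible by more than the widest triplicate range, and 441 (3.21%) had the reverse order.

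**Figure D4:**
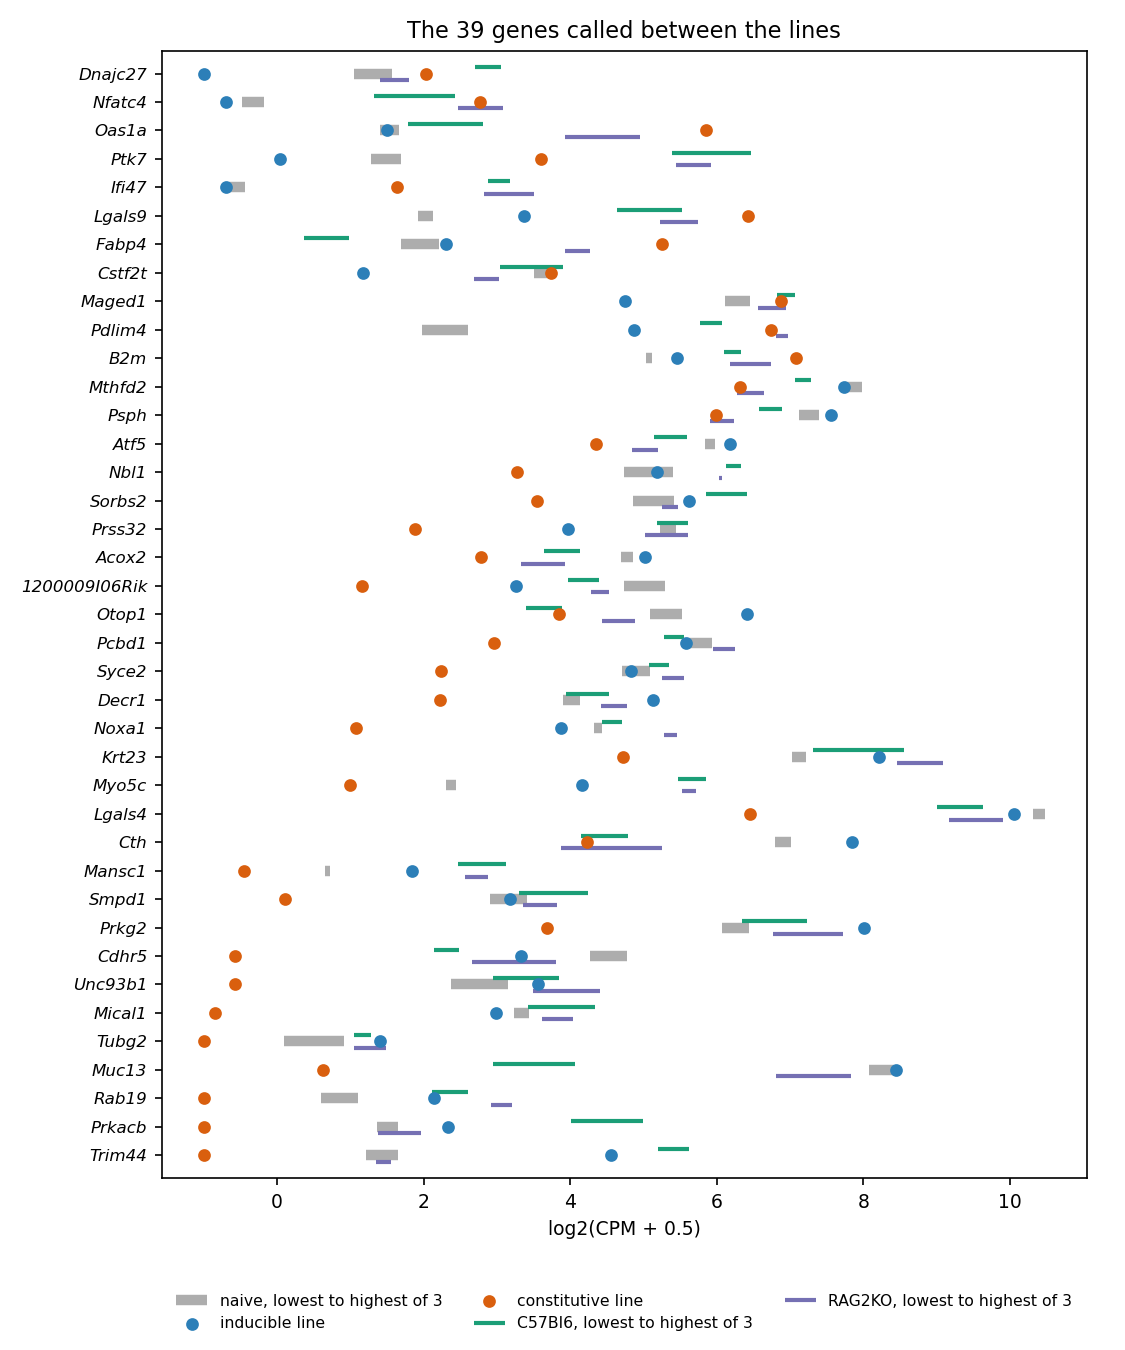
Level of the 39 genes called between the lines on the log2(CPM + 0.5) scale, ordered by the fitted difference, with 1 point for each line and bars from the lowest to the highest library of each triplicate group. In the upper 11 rows the constitutive line is to the right, and in the lower 28 rows the inducible line is.

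Genes that SOXF factors are known to serve in vessels were examined next. Their list, like the others here, was written with earlier results of these data known. Its share beside that of all tested genes is therefore a description and no test. Of 26 listed endothelial and SOXF target genes 15 passed the filter, none was called between the lines, and 4, Tek, Rhoj, Cdh5 and Ecscr, lay in the order naive, inducible, constitutive with a line difference beyond the widest triplicate range (3.63% of tested genes did). Tek, the angiopoietin receptor, was at 0.0715, 0 and 0.0953 CPM in naive organoids, 3.61 CPM in the inducible line and 26.05 CPM in the constitutive line. Rhoj, a small GTPase of endothelial cells, was at 0, 0.0876 and 0 CPM in naive organoids, 1.98 CPM in the inducible line and 25.5 CPM in the constitutive line. The constitutive line was above every tumour-derived library for both, with at most 1.92 CPM of Tek and 6.60 CPM of Rhoj there. Against naive both were called in the constitutive line (adjusted p = 0.00183 and 0.00489), while the line difference was called only in the fit without tumour-derived libraries (adjusted p = 0.0229 and 0.0150).

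Promoters of Tek and Rhoj are shown because SOX proteins are known to prefer the letters AACAAT, which read ATTGTT on the other strand. Capitals mark a match on either strand in the 250 bases before the start (RefSeq, GRCm38.p6).
Tek (chr4:94739039-94739288, plus strand): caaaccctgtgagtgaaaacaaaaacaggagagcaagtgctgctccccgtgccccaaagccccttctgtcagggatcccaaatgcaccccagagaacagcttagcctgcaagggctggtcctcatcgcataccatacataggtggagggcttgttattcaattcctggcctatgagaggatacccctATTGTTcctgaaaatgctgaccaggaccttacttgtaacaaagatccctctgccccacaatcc
Rhoj (chr12:75308063-75308312, plus strand): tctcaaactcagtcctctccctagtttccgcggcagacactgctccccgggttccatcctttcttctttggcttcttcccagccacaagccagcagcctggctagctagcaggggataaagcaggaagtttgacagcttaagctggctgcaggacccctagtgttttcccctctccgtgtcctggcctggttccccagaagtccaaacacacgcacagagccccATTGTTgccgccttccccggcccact
Of 10 listed endothelial and SOXF target genes with a window, Tek and Rhoj were the 2 that held the motif. It was present in 9.424% of all windows and in 6.615% of windows of tested genes, so a match in a window of this length is common.

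Several other SOX genes had higher values in the constitutive line. Of 19 listed members 10 passed the filter, which a gene can pass through 1 library alone. Higher beyond the widest triplicate range were 6 of the 10 (60%, against 10.3% of tested genes). These were Sox4, Sox5, Sox6, Sox13, Sox21 and Sox17 itself, the gene of the construct. Lower beyond it were 0, and none was called. Differences ran from -4.15 to 3.93, and 7 of the 10 were positive. Sox13 was at 6.08, 6.22 and 6.86 CPM in naive organoids, 18.8 CPM in the inducible line and 53.9 CPM in the constitutive line (1.52, SE 0.33, adjusted p = 0.109). Sox13 was called above naive in both lines (adjusted p = 0.0329 and 0.000199). Sox4 and Sox21 were at 65.4 and 54.2 CPM in the inducible and at 129 and 119 CPM in the constitutive line against 56.6 to 81.1 CPM of Sox4 and 64.4 to 96.0 CPM of Sox21 in naive organoids. The constitutive line was above every naive library for both. Sox9, a factor of crypt progenitors, was at 26.2 and 32.7 CPM.

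Markers of other cells that an organoid culture could hold were low. Levels were summed over all matched members of each list, tested or not. For 14 fibroblast and smooth muscle markers (6 tested) they were 1.22 and 8.01 CPM in the inducible and constitutive line (naive 1.31 to 1.76 CPM). For 8 endothelial markers (5 tested) they were 14.2 and 20.9 CPM (naive 10.1 to 13.7 CPM). For 21 immune markers (5 tested) they were 30.1 and 40.9 CPM (naive 36.4 to 46.7 CPM). Dcn and Pdpn had no count in either line, and Ptprc was at 0 and 0.173 CPM. Most of the fibroblast sum of the constitutive line came from Col3a1, at 0.350 and 5.24 CPM in the inducible and constitutive line, and Pdgfra, at 0.0583 and 1.33 CPM. Their part in the differences above was not tested. In bulk RNA of this kind fewer cells of a type and less RNA per cell cannot be told apart.

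**Figure D5:**
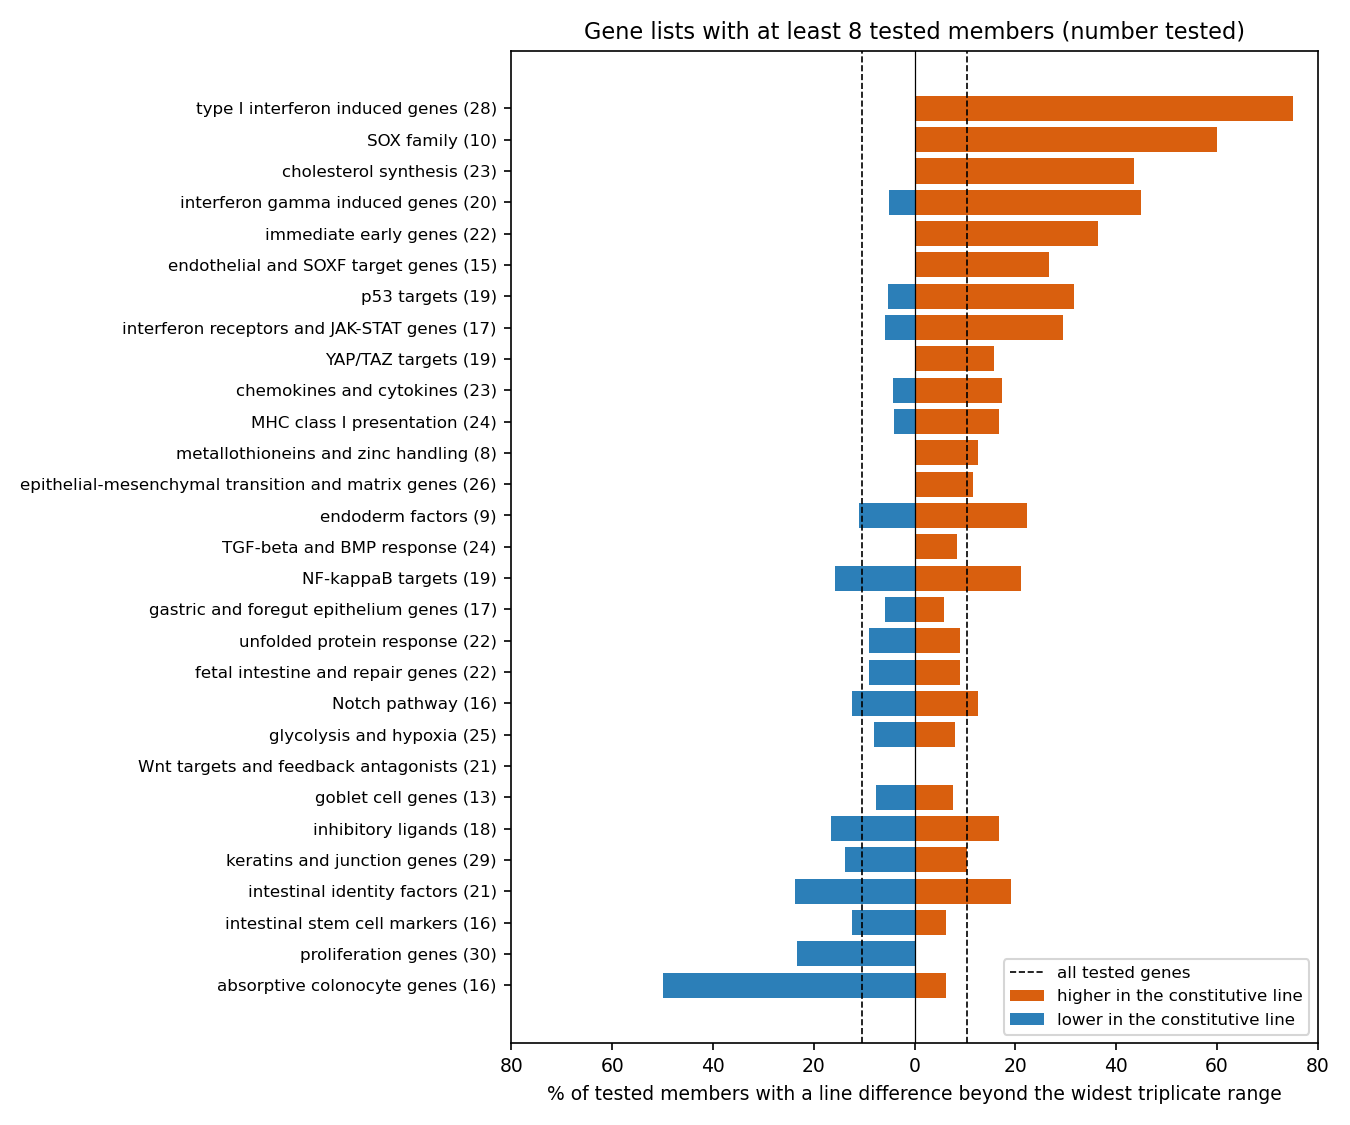
Share of tested members of each gene list whose line difference exceeded the widest triplicate range, to the right where the constitutive line was higher and to the left where it was lower, with dashed lines at the shares over all tested genes (10.3% and 10.5%). The type I interferon list reaches furthest to the right at 75% and the absorptive colonocyte list furthest to the left at 50%.

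In the lists of proliferation, cholesterol synthesis and immediate early genes no member was called between the lines. Of 30 proliferation genes 1 had a positive difference, and the median was -0.43. Lower beyond the widest triplicate range were 7 (23.3%, against 10.5% of tested genes), and 0 were higher beyond it. The most abundant, Pcna and Top2a, were at 494 and 472 CPM in the inducible and at 434 and 371 CPM in the constitutive line. Tk1, Aurkb, Cdc45, Bub1b and Foxm1 were among the 7 lower ones and were called lower than naive in the constitutive line. In that comparison 9 of the 30 were called lower and 0 higher (5.04% and 7.23% of tested genes were). Aurkb, a mitotic kinase gene, was at 95.9, 109 and 99.5 CPM in naive organoids, 84.6 CPM in the inducible line and 47.9 CPM in the constitutive line. Of 23 cholesterol synthesis genes 20 had a positive difference, with a median of 0.43, and 10 were higher beyond the range (43.5%, against 10.3% of tested genes). Cyp51 was at 326 CPM in the inducible and 543 CPM in the constitutive line, and naive organoids, at 386 to 410 CPM, lay between them. Of 22 immediate early genes 8 were higher beyond the range (36.4%, against 10.3% of tested genes), with a median of 0.78. Dusp1 was at 5.83 and 36.5 CPM in the lines and at 30.9 to 119 CPM in naive organoids, so the inducible line was the low one.

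Some genes of the Wnt and metallothionein lists departed from naive in both lines. None of 21 Wnt targets and feedback antagonists differed between the lines beyond the widest triplicate range, and the median was 0.19. The fit without tumour-derived libraries tested 19 members of this list. There 2 were called higher in the constitutive line, where 1.57% of tested genes were, and 0 lower. These were the Wnt inhibitor gene Wif1 (adjusted p = 0.00628) and Bmp4 (adjusted p = 0.0249). Notum, which removes the lipid of Wnt proteins, was at 22.3, 22.9 and 10.1 CPM in naive organoids, 187 CPM in the inducible line and 247 CPM in the constitutive line. Notum was called higher than naive in both (adjusted p = 0.0329 and 0.00358). Mt4, a zinc-binding metallothionein, was at 268, 229 and 84.8 CPM in naive organoids, 2768 CPM in the inducible line and 3722 CPM in the constitutive line, and was called in both as well (adjusted p = 0.0269 and 0.00295). The line differences of Notum and Mt4 were 0.40 and 0.43, and neither was called. Ly6a and Anxa1, genes of the fetal and repair state, had line differences of -0.36 and -0.14, and Ascl2, Trp53 and Apc had -0.49, -0.16 and 0.12, none of them called.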

How the data were processed

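Poly(A) RNA of 11 mouse organoid samples was sequenced; per the labels' protocols, RNA came from an Ambion PureLink kit and libraries from NEBNext Ultra II Directional reagents. The deposited values are expected counts per gene name; per the submitters' processing notes Bowtie, RSEM and mm9 were used, with no versions, roles or annotation stated. The deposited expected counts were rounded to whole numbers. Samples were grouped by their labels into naive (3), C57Bl6 (3), RAG2KO (3) and the 2 lines (1 each).

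Genes passing filterByExpr were scaled by TMM and tested with the robust quasi-likelihood test of edgeR 4.0.16 in R 4.3.3 over all 11 libraries in 5 groups (biological coefficient of variation 25.3%, residual degrees of freedom 6, median prior degrees of freedom 4.16), two-sided, with Benjamini-Hochberg adjustment and a threshold of 0.05. Each lone line was thereby assumed to vary like the triplicate groups. An SE was obtained as the size of the log2 difference over the root of its F statistic. The pseudocount was 0.5 CPM for differences outside the fit. Ratios of counts have exact 95% counting intervals, and a library at 0 counts was set to a floor of 3 counts. The code was tested on simulated data. Results for some genes are not reported here.

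The genes and the 36 gene lists (763 entries, 758 matched, 609 tested) were chosen with earlier results of these data known. Named genes were a set of 16, the up to 12 largest rises and falls among called genes with at least 5 CPM in the higher line, up to 4 called members of each list, or its 2 most abundant members where none was called, and called SOX genes. Further genes (other called genes, members of a list beyond the widest triplicate range, and others given as examples) were picked once their values had been seen. The alternatives tried were other scalings (DESeq2 1.42.0 size factors, upper quartile, library totals, Rn45s left out), filters, DESeq2's Wald test, limma 3.58.1 voom, a non-robust fit, naive and the lines only, a replicate block and leaving out each triplicate library.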

Additional observations from a re-analysis of the deposited data

Results flagged for a closer look

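The effects of the constitutive and the inducible line against naive organoids differed by a direct test for 39 genes (edgeR, adjusted p under 0.05). Their fitted log2 differences, constitutive minus inducible, follow. Higher in the constitutive line were Dnajc27 (9), Nfatc4 (5.68), Oas1a (4.62), Ptk7 (4.45), Ifi47 (4.40), Lgals9 (3.12), Fabp4 (3.08), Cstf2t (2.87), Maged1 (2.15), Pdlim4 (1.89) and B2m (1.65).

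The largest falls were in Trim44 (-11.68), Prkacb (-9.35), Rab19 (-9.13), Muc13 (-8.38), Tubg2 (-8.28), Mical1 (-6.85), Unc93b1 (-5.97), Cdhr5 (-5.73) and Prkg2 (-4.38). Fitted values of Dnajc27, Trim44, Prkacb, Rab19 and Tubg2, at 0 counts in one line, and of Nfatc4, Ifi47, Mical1, Unc93b1 and Cdhr5, at 1 to 3 counts, depend on the prior count of the fit. Smpd1 (-3.87), Mansc1 (-3.70), Cth (-3.65), Lgals4 (-3.62), Myo5c (-3.53), Krt23 (-3.52), Noxa1 (-3.12) and Decr1 (-3.06) followed. Smaller falls were those of Syce2 (-2.72), Pcbd1 (-2.71), Otop1 (-2.60), 1200009I06Rik (-2.38), Acox2 (-2.32), Prss32 (-2.25), Sorbs2 (-2.12), Nbl1 (-1.96), Atf5 (-1.86), Psph (-1.58) and Mthfd2 (-1.44).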

How the results depend on the processing

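Of the 39 genes called between the lines, 11 kept their call in all 20 alternatives (Decr1, Lgals4, Lgals9, Maged1, Muc13, Myo5c, Noxa1, Pcbd1, Prkg2, Syce2 and Trim44). DESeq2's Wald test called 327 genes between the lines and 800 for the inducible line against naive. With naive organoids and the lines only, 411 genes were called between the lines, 2641 for the constitutive and 454 for the inducible line against naive. With 1 triplicate library left out, the counts ranged from 17 to 80, from 721 to 1900 and from 12 to 147. The replicate block gave 24 calls between the lines, 20 of them shared, with adjusted p values of 0.0519 to 0.104 for the calls lost, and 25 for the inducible line against naive; the lines carry no replicate number, and 2 of 9 same-numbered pairs of triplicate libraries had a correlation over 0.1 (range -0.23 to 0.29), so the numbers were not taken as pairs. Each sample matched its own number best in 5 of 18 cases. Other scalings, filters, limma voom (37 calls, 22 shared) and a non-robust fit stayed within 1.5 times of 39. The planned fit without genes of departing chromosomes was not run, because no chromosome's median departed by over 0.2. The cause of these changes was not tested. With 1 library per line, genes at few counts were limited by depth.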

Other observations

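Some genes with large differences between the lines lay beyond the widest triplicate range without being called; they were chosen after their values were seen. Thbs2, a matrix glycoprotein gene, was at 1.07, 1.45 and 1.48 CPM in naive organoids, 5.19 CPM in the inducible line and 385 CPM in the constitutive line (adjusted p = 0.109). Twist1, a factor of mesenchymal cells, was at 0.143, 0.175 and 0.477 CPM, 0.991 CPM and 80.9 CPM in the same order (adjusted p = 0.321). Both had an adjusted p below 0.05 in the fit of naive organoids and the lines only (0.000741 and 0.00268).

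Ifitm3, a membrane protein that restricts viruses, was at 3.57, 3.90 and 0.715 CPM in naive organoids, 71.1 CPM in the inducible line and 1704 CPM in the constitutive line. Ifitm3 was called above naive in both lines (adjusted p = 0.0198 and 0.000214), and the line difference was 4.58 (SE 0.91, adjusted p = 0.0976). Reads of Ifitm3 may be divided with similar Ifitm genes. In the other direction Khdc1c had no count in the constitutive line and was at 28.2 CPM in the inducible line, at least 163-fold higher there (adjusted p = 0.0524).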
